A study of Mus musculus with 8 samples.

Results

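The YTH domain family of m6A readers was followed in hearts that had lost the m6A writer METTL3 from their cardiomyocytes. Its members were taken by gene symbol, and all 5 (Ythdf1, Ythdf2, Ythdf3, Ythdc1 and Ythdc2) were listed among 23045 genes and passed the filter on low values that left 20313 genes for testing. RNA-seq libraries of total RNA from mouse hearts were compared between 4 WT (Mettl3lox/lox) and 4 Mettl3 KO (Mettl3lox/lox:alphaMHC-MerCreMerpos) samples. Mice of both genotypes carried loxP-flanked Mettl3, were 10 to 16 weeks old and received intraperitoneal tamoxifen at 100 µg per 1 g body weight on 7 consecutive days. MerCreMer, a Cre recombinase that is active only with tamoxifen, is driven by the αMHC promoter and thus made in cardiomyocytes, while fibroblasts, endothelial cells and the other cells of the heart keep Mettl3. The WT mice lacked the transgene, so effects of the transgene and of Mettl3 loss cannot be told apart. In heart RNA, fewer cells of a type and less RNA per cell cannot be told apart either. The labels number the samples of each genotype but do not describe how hearts were assigned to them, and p-values measure the spread between these libraries.

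N6-methyladenosine (m6A) is placed on nascent RNA by a complex around METTL3 and METTL14 and is bound by proteins with a YTH domain, whose aromatic pocket holds the methylated base. YTHDF1, YTHDF2 and YTHDF3 are closely related cytoplasmic proteins. YTHDF2 is best known for bringing the CCR4-NOT deadenylase to methylated mRNAs and so starting their decay, and YTHDF1 and YTHDF3 have been described both as translation factors and as partners of YTHDF2 in decay. YTHDC1 is the nuclear reader, with roles in splicing and export, and YTHDC2 is a large RNA helicase with its own YTH domain that is best known from the germ line.

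Values are normalized read counts, whole numbers per gene and library. They summed to 2839589 to 2916986 per library, and 2631906 to 3061270 reads per library stood behind them, as estimated from gaps between low values. Mettl3 itself checked the labels. It held 105, 133, 118 and 107 in WT libraries and 74, 68, 69 and 78 in Mettl3 KO libraries, a log2 fold change of -0.67 (adjusted p = 0.000184 by limma, SE 0.10) with no overlap between the genotypes. The count covers all exons and all cells of the sample. Libraries differed in atrial transcripts. Bmp10, an atrial growth factor gene, was at 0 in all WT libraries and in Mettl3 KO replicate 1 and at 195, 158 and 358 in Mettl3 KO replicates 2 to 4, and Myl7, the atrial myosin light chain gene, held 26, 21, 0 and 23 in WT libraries and 23, 65, 90 and 119 in Mettl3 KO libraries. Whether more atrial tissue or more of these transcripts per cell was present cannot be told apart, and which parts of the heart were taken is not given in the sources used here.

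Cytoplasmic readers were described first, and Ythdf1 was the member that differed most. Ythdf1 (ENSMUSG00000038848, mm39 chr2:180546170-180562742, minus strand) held 167, 142, 156 and 134 normalized read counts in WT libraries and 203, 188, 227 and 199 in Mettl3 KO libraries. Every Mettl3 KO library lay above every WT library. The means were 149.8 ± 14.7 (SD, n = 4) and 204.2 ± 16.4 (SD, n = 4), and Ythdf1 was 36.3% higher by the fit, a log2 fold change of 0.45 (SE 0.08, 95% interval 0.27 to 0.62, limma adjusted p = 0.00122). Ranked by signed log2 fold change over the tested genes, it stood at percentile 91.0. Leaving out each library in turn gave 0.40 to 0.50, with an adjusted p of at most 0.0124. Without a mean-variance trend in the fit the log2 fold change was 0.45 and the adjusted p 0.0742. With the mean level of fibroblast markers as a covariate the direction turned, to -0.04 (adjusted p = 0.989), as described with the markers.

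Ythdf2 was next by size of difference. Ythdf2 (ENSMUSG00000040025, mm39 chr4:131912223-131939614, minus strand) held 170, 143, 147 and 141 in WT libraries and 210, 189, 169 and 160 in Mettl3 KO libraries. WT replicate 1 reached into the range of the Mettl3 KO libraries, above their replicates 3 and 4. The means were 150.2 ± 13.4 (SD, n = 4) and 182 ± 22.3 (SD, n = 4), and the log2 fold change of 0.27 (SE 0.09, 95% interval 0.09 to 0.46) missed the threshold of 0.05 (limma adjusted p = 0.0671). The call turned on single libraries. Without WT replicate 1 the log2 fold change was 0.33 (limma adjusted p = 0.0409). Omitting Mettl3 KO replicate 4 also gave 0.33 (adjusted p = 0.0468), and over all omissions the adjusted p lay between 0.0409 and 0.197. With the mean level of atrial markers as a covariate the log2 fold change was 0.43 (adjusted p = 0.0675), and with that of fibroblast markers 0.13 (adjusted p = 0.972).

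Ythdf3 was the most abundant of the cytoplasmic readers. Ythdf3 (ENSMUSG00000047213, mm39 chr3:16237376-16271201, plus strand) held 481, 444, 473 and 474 in WT libraries and 491, 488, 476 and 477 in Mettl3 KO libraries. The genotypes overlapped through WT replicate 1, and WT replicates 2, 3 and 4 lay below the Mettl3 KO libraries, replicates 3 and 4 by few read counts. The log2 fold change was 0.05 (adjusted p = 0.681 by limma, SE 0.05). Its 95% interval of -0.06 to 0.15 lay below the estimate for Ythdf1.

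**Figure D1:**
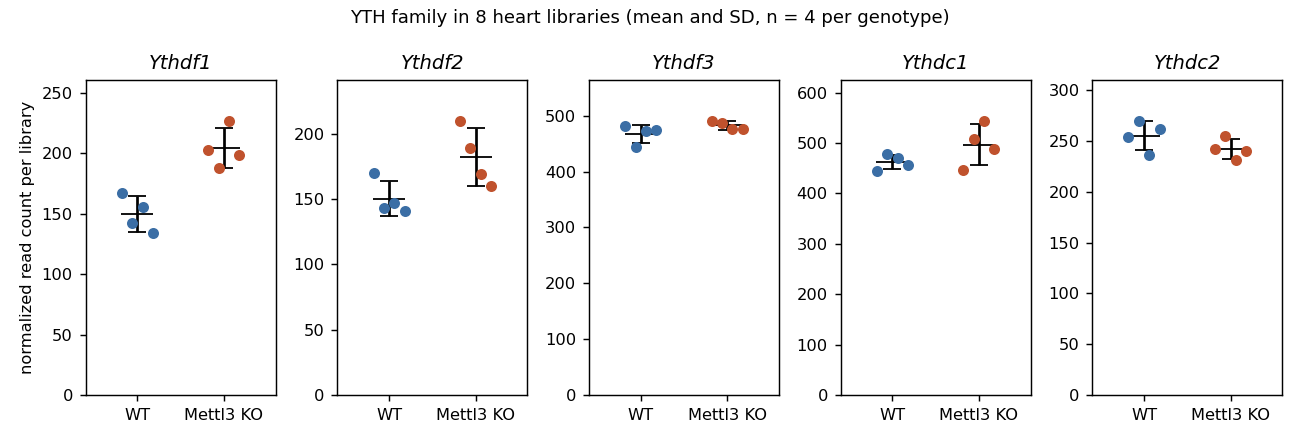
Normalized read counts of the 5 YTH family genes in each library (points, 4 WT and 4 Mettl3 KO) with the group mean and SD. The Ythdf1 points of Mettl3 KO hearts, 188 to 227, lie above all WT points, 134 to 167, and the other members overlap between genotypes.

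Neither nuclear YTHDC1 nor the helicase YTHDC2 had a transcript that passed the test. Ythdc1 (ENSMUSG00000035851, mm39 chr5:86952080-86984518, plus strand) held 445, 478, 470 and 457 in WT libraries and 447, 508, 544 and 488 in Mettl3 KO libraries. Mettl3 KO replicate 1 sat at the bottom of the WT range and the other Mettl3 KO libraries above it. The log2 fold change was 0.10 (SE 0.06, 95% interval -0.02 to 0.22, limma adjusted p = 0.355), and leaving out Mettl3 KO replicate 1 gave 0.15 (adjusted p = 0.101), while leaving out Mettl3 KO replicate 3 gave 0.05 (adjusted p = 0.709). Mettl3 KO replicate 1 was also the Mettl3 KO library without Bmp10, and with the mean level of atrial markers as a covariate the log2 fold change was 0.01 (adjusted p = 0.962). With that of fibroblast markers it was 0.23 (limma adjusted p = 0.872).

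Ythdc2 was the only member whose log2 fold change was negative. Ythdc2 (ENSMUSG00000034653, mm39 chr18:44960813-45022791, plus strand) held 254, 270, 236 and 262 in WT libraries and 242, 255, 231 and 240 in Mettl3 KO libraries. The genotypes overlapped over most of their range. The log2 fold change was -0.08 (SE 0.06, 95% interval -0.21 to 0.06, limma adjusted p = 0.575). With atrial markers as a covariate it was -0.14 (adjusted p = 0.516) and with fibroblast markers 0.21 (adjusted p = 0.907).

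As a family, 1 of 5 members was called higher and 0 were called lower, 2 of 5 had an unadjusted limma p under 0.05, and the median log2 fold change was 0.10. Over all tested genes 7.91% were called, 4.72% as higher and 3.19% as lower, 11.5% did not overlap between the genotypes, and the median log2 fold change was -0.01. The share of all tested genes with an unadjusted p under 0.05 was not counted, so counts by unadjusted p, here and below, have no background beside them. The summed values of the 5 genes were 1468 to 1517 in WT libraries and 1564 to 1647 in Mettl3 KO libraries, and those of the 3 Ythdf genes 729 to 818 and 836 to 904. Neither sum overlapped between the genotypes.

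The depth behind the members differed. Ythdf1 rested on 134 to 217 recovered reads per library, Ythdf2 on 141 to 191, Ythdc2 on 218 to 291, Ythdc1 on 403 to 525 and Ythdf3 on 443 to 513. Counting error alone gives a coefficient of variation of 8.01% for Ythdf1 and 4.53% for Ythdf3 in WT libraries. Against counting error, chi-square per degree of freedom was 1.54 for Ythdf1 among WT and 1.08 among Mettl3 KO libraries. The widest spread was that of Ythdc1 among Mettl3 KO libraries, at 3.23, followed by Ythdf2 among Mettl3 KO libraries, at 2.27.

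Because the authors left out multi-mapping reads, the share of each gene's sequence that also occurs elsewhere was counted in stretches of 72 bases, the read length, in GENCODE M21 transcripts. Ythdf1 and Ythdf3 shared 0% of their stretches with any other gene, so reads of these paralogues could be told apart. Ythdf2 shared 3.61% with Gm6823 and Gm8401, Ythdc1 shared 5.07% and Ythdc2 0.454% with other genes, and no stretch was shared between members.

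To compare levels between the members, values were divided by the length of their exons, and levels are given as normalized read counts per kb of the union of annotated exons. In WT hearts Ythdf3 stood highest at 87.3 ± 3.06 per kb (SD, n = 4), followed by Ythdf1 at 45.2 ± 4.42, Ythdc1 at 33.9 ± 1.06, Ythdf2 at 32.9 ± 2.93 and Ythdc2 at 28.8 ± 1.64. Ythdf3 and Ythdf1 lay apart from each other and from the rest in every WT library. Ythdc1 and Ythdf2 did not differ beyond their spread, as all Ythdc1 values fell within the Ythdf2 range of 30.8 to 37.2. Among 14371 protein-coding genes, whose median was 19.7 per kb, Ythdf3 stood at percentile 91.1, Ythdf1 at 75.9, Ythdc1 at 66.9, Ythdf2 at 66.0 and Ythdc2 at 61.8.

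The place of Ythdc1 depends on the length used, since its 9 annotated transcripts span a union of 13651 bases and the longest has 6313. Per kb of the longest transcript, Ythdc1 came to 73.3 ± 2.30 (SD, n = 4), second to Ythdf3 at 91.7 ± 3.21 and above Ythdf1 at 47.0 ± 4.60. On that scale Ythdf2 (34.2 to 41.2) and Ythdc2 (32.7 to 37.4) overlapped. In Mettl3 KO hearts the union-exon levels were 90.1 ± 1.42 for Ythdf3, 61.6 ± 4.96 for Ythdf1, 39.8 ± 4.87 for Ythdf2, 36.4 ± 2.96 for Ythdc1 and 27.3 ± 1.12 for Ythdc2 (SD, n = 4).

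The make-up of the cytoplasmic readers was then compared, as each gene's share of the summed Ythdf level per kb of union exon. Ythdf1 took 28.4%, 27.3%, 28.1% and 25.3% in WT libraries and 30.8%, 29.99%, 35.2% and 32.6% in Mettl3 KO libraries. Ythdf3 took 52.9% ± 1.95 (SD, n = 4) in WT and 47.1% ± 1.37 (SD, n = 4) in Mettl3 KO hearts, and Ythdf2 19.9% ± 0.81 and 20.8% ± 2.06. The shares of Ythdf1 and of Ythdf3 did not overlap between genotypes and those of Ythdf2 did. The shares add to a whole, so a rise of Ythdf1 lowers the others' shares with no change of their own.

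**Figure D2:**
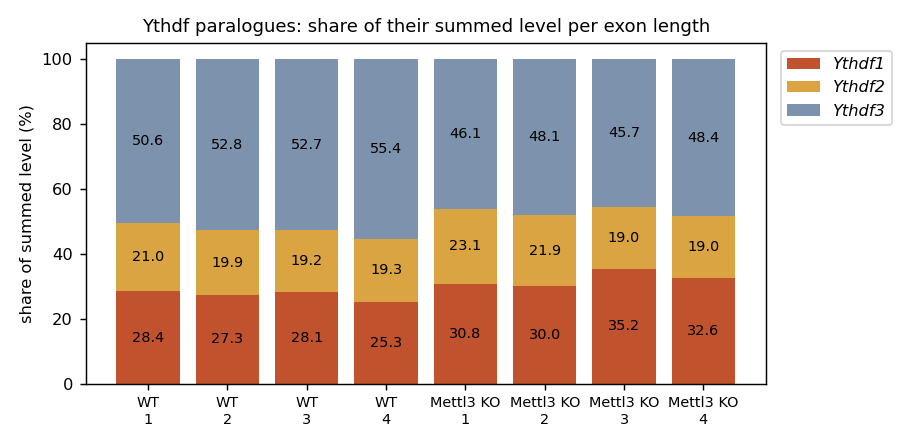
Share (%) of Ythdf1, Ythdf2 and Ythdf3 in the summed Ythdf level per kb of union exon, 1 stacked bar per library. Ythdf3 is the largest share in all 8 libraries, and the Ythdf1 share is larger in each Mettl3 KO library (29.99% to 35.2%) than in any WT library (25.3% to 28.4%).

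Whether members differed from each other in their response was tested on the log2 ratio of 2 members within a library, over all 10 pairs, with a two-sided exact permutation test whose smallest possible p for 4 against 4 libraries is 0.0286. Ythdf1 relative to Ythdf3 was higher in Mettl3 KO hearts by 0.40 on the log2 scale (SE 0.09) and relative to Ythdc2 by 0.52 (SE 0.13), each with no overlap between genotypes, p = 0.0286 and an adjusted p over the 10 pairs of 0.0952 in the exact test. Ythdf1 against Ythdf2 differed by 0.18 (SE 0.12, exact permutation p = 0.257, adjusted p = 0.317) and by 0.09 without Mettl3 KO replicate 3, with a range of 0.09 to 0.25 over all omissions, so these 2 members were not shown to differ in response, nor to respond alike. Of the 10 pairs, 2 had an exact p under 0.05 and 0 had an adjusted p under it, which this design allows only if most of the pairs sit at the smallest possible p.

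None of the remaining pairs reached the smallest p. The exact permutation p was 0.0571 (adjusted 0.0952) for Ythdf1/Ythdc1 with a shift of 0.35 (SE 0.10), Ythdf2/Ythdc2 with 0.35 (SE 0.11), Ythdf2/Ythdf3 with 0.23 (SE 0.09) and Ythdc1/Ythdc2 with 0.18 (SE 0.09). Ythdf3 against Ythdc1 had the smallest difference, -0.05 (SE 0.08, exact permutation p = 0.543). Ythdf3/Ythdc2 differed by 0.12 (SE 0.06, exact permutation p = 0.0857) and Ythdf2/Ythdc1 by 0.17 (SE 0.15, exact permutation p = 0.286).

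**Figure D3:**
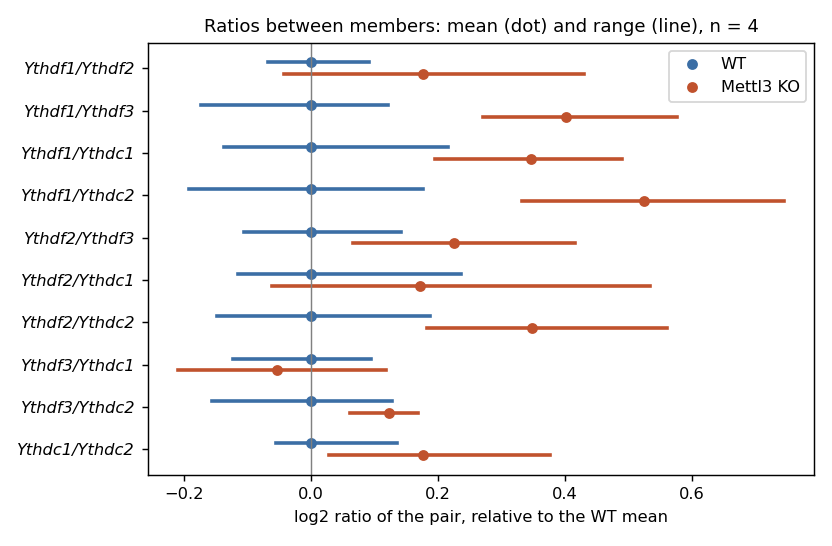
Log2 ratio of each pair of YTH family genes within a library, relative to the WT mean of that pair. Dots give the mean and lines the range of 4 WT and 4 Mettl3 KO libraries. Only Ythdf1/Ythdf3 and Ythdf1/Ythdc2 have a Mettl3 KO range that lies wholly above the WT range.

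The genes that place, remove and otherwise bind m6A were read in the same fit. Of 9 writer genes, 2 were called higher and 1 lower, with a median log2 fold change of 0.07, beside 4.72% called higher and 3.19% lower over all tested genes. The list includes the deleted gene. The gene called lower was Mettl3. Wtap, the scaffold that holds METTL3 and METTL14 in nuclear speckles, held 171, 140, 149 and 165 in WT libraries and 196, 198, 201 and 195 in Mettl3 KO libraries, and rose by 0.34 (adjusted p = 0.00639 by limma, SE 0.08) with no overlap. The Wtap call was lost without a mean-variance trend (adjusted p = 0.0875) and with atrial (0.29, adjusted p = 0.193) or fibroblast markers (0.09, adjusted p = 0.977) as a covariate. Mettl16, a separate m6A methyltransferase with targets that include U6 snRNA, held 220, 236, 236 and 234 in WT libraries and 268, 259, 263 and 279 in Mettl3 KO libraries, and rose by 0.21 (adjusted p = 0.0418 by limma, SE 0.06). The Mettl16 call was lost whichever library was left out, with an adjusted p of 0.0597 to 0.127. Mettl14, the partner that METTL3 needs for activity, was not called.

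Of the 2 erasers, the demethylase gene Alkbh5 was called higher and Fto was not. Alkbh5 held 505, 547, 555 and 505 in WT libraries and 610, 609, 636 and 582 in Mettl3 KO libraries, and rose by 0.21 (adjusted p = 0.0121 by limma, SE 0.05). All Mettl3 KO libraries lay above the WT libraries. The adjusted p was 0.0522 when WT replicate 1 was omitted and 0.0608 when Mettl3 KO replicate 3 was. The eraser Fto had a log2 fold change of -0.05. Of 8 tested m6A-binding proteins without a YTH domain, 0 were called in the limma fit, 3 had an unadjusted p under 0.05 and the median log2 fold change was -0.07. Over all tested genes 7.91% were called, 4.72% as higher, so 0 of 8 is no lack of calls. Igf2bp2 had a log2 fold change of -0.18 and Rbmx one of -0.22 (limma adjusted p = 0.0603). Igf2bp3 was too low to be tested and Igf2bp1 was not analysed here.

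**Figure D4:**
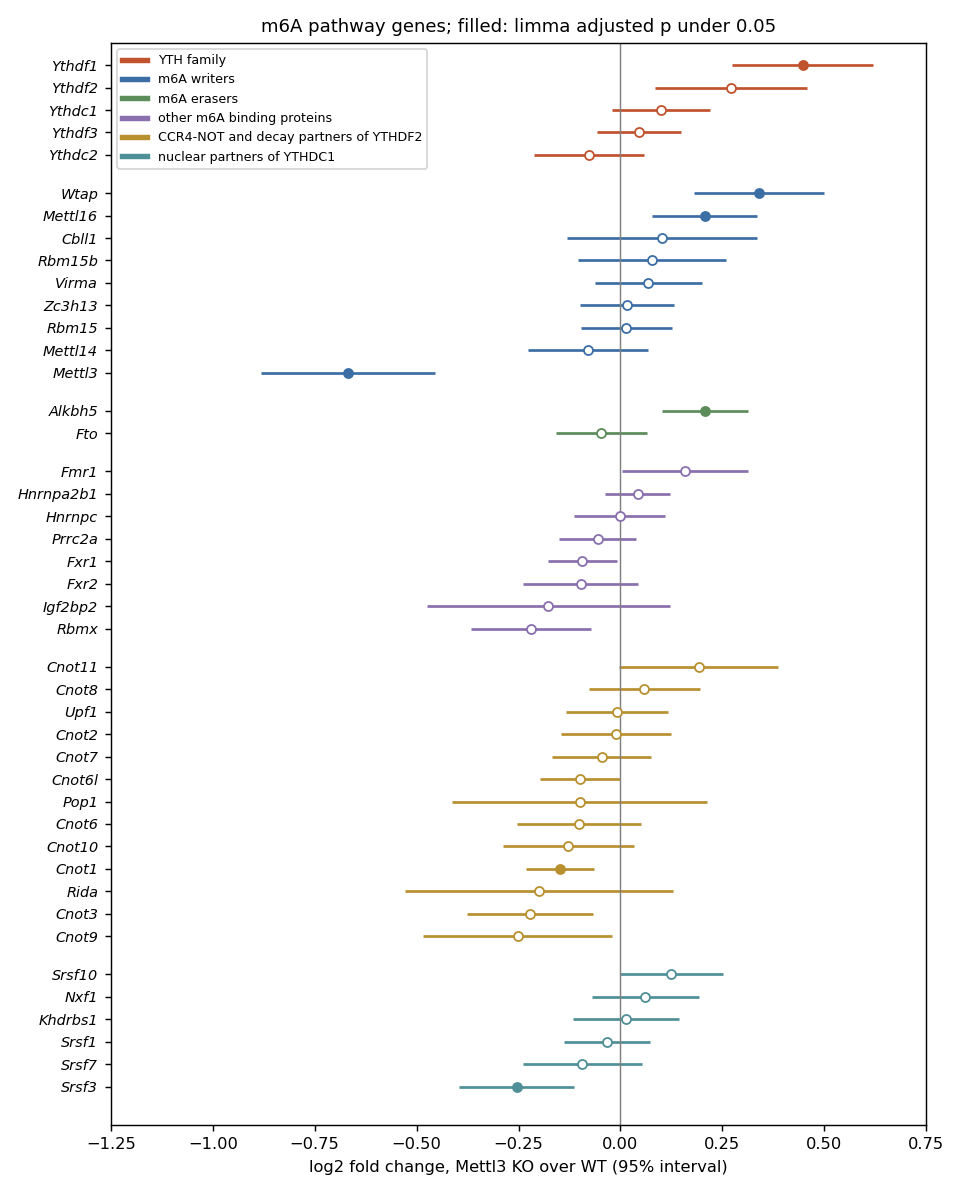
Log2 fold change (Mettl3 KO over WT) with its 95% interval for the YTH family and the m6A writers, erasers, other binding proteins and partners of YTHDF2 and YTHDC1, with filled points for a limma adjusted p under 0.05. Ythdf1, Wtap, Mettl16 and Alkbh5 are the filled points to the right of 0, and Mettl3, Cnot1 and Srsf3 those to the left.

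Partners of the readers were examined as well. Of 13 genes of the CCR4-NOT complex and other decay factors that work with YTHDF2, 0 were called higher and 1 lower, 4 had an unadjusted limma p under 0.05 and the median log2 fold change was -0.10 against -0.01 over all tested genes, with 11 negative and 2 positive values. A share of 1 in 13 is close to the 7.91% called over all genes, so the list held no excess of calls. Cnot1, the scaffold subunit that YTHDF2 contacts, held 1106, 1044, 1072 and 1120 in WT libraries and 958, 984, 1009 and 965 in Mettl3 KO libraries, and fell by 0.15 on the log2 scale (adjusted p = 0.0246 by limma, SE 0.04). The genotypes did not overlap. The Cnot1 call was lost without WT replicate 1 (adjusted p = 0.0809), WT replicate 4 (0.0814), Mettl3 KO replicate 2 (0.0558) or Mettl3 KO replicate 4 (0.0609). It was also lost with the replicate number as a block (limma adjusted p = 0.0519). Cnot3, another subunit of the complex, had a log2 fold change of -0.22 (limma adjusted p = 0.0718). The summed values of the 13 genes were 3787 to 3882 in WT and 3565 to 3662 in Mettl3 KO libraries, with no overlap.

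Of 6 nuclear partners of YTHDC1, 1 was called lower and 0 higher, with a median log2 fold change of -0.01, beside 3.19% called lower over all tested genes. Srsf3, a splicing factor that YTHDC1 brings to exons, held 315, 321, 309 and 330 in WT libraries and 242, 304, 254 and 272 in Mettl3 KO libraries, and fell by 0.25 on the log2 scale (adjusted p = 0.0220 by limma, SE 0.07). All Mettl3 KO libraries lay below the WT libraries. The Srsf3 call was lost in 5 of the 8 omissions: without WT replicate 1 (adjusted p = 0.0504), WT replicate 2 (0.0621), WT replicate 4 (0.0732), Mettl3 KO replicate 1 (0.0607) or Mettl3 KO replicate 3 (0.0903). Of 3 partners of YTHDC2, 2 were tested, 0 were called and 1 had an unadjusted limma p under 0.05. Xrn1, the 5′ to 3′ exonuclease that binds YTHDC2, had a log2 fold change of -0.12 (limma adjusted p = 0.184), Rbm46 was near the floor of detection and Meioc was not analysed here. Without a mean-variance trend the calls of Mettl16 (adjusted p = 0.142), Alkbh5 (0.169), Srsf3 (0.181) and Cnot1 (0.245) were lost, at unchanged log2 fold changes. With atrial markers as a covariate those of Mettl16 (0.22, limma adjusted p = 0.227) and Cnot1 (-0.18, adjusted p = 0.0953) were lost. Their log2 fold changes were no smaller in size than in the main fit. Alkbh5 (0.27, adjusted p = 0.0401) and Srsf3 (-0.39, adjusted p = 0.0220) stayed called with that covariate. With fibroblast markers as a covariate none of these 4 genes was called (limma adjusted p of 0.815 to 0.966, SE 0.13 to 0.20). There the log2 fold change was 0.23 for Mettl16, 0.27 for Alkbh5 and -0.22 for Cnot1, no smaller in size than in the main fit. For Srsf3 it turned to 0.11.

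Cell type markers were read beside these values. Over all tested genes 4.72% were called higher and 3.19% lower, and 11.5% did not overlap between the genotypes. Cardiomyocyte markers summed to 82528 to 89044 in WT and 81442 to 91222 in Mettl3 KO libraries, and 0 of 8 were called (limma, 1 with an unadjusted p under 0.05). Their log2 fold changes were positive for 7 genes and negative for 1. Most of each sum came from Ttn, at 67610 to 76105 across the libraries. Fibroblast markers had positive log2 fold changes for all 8 genes, 7 of them called higher, with sums of 3493 to 3883 and 4398 to 5060 that did not overlap and a median log2 fold change of 0.39. Endothelial markers had negative log2 fold changes for all 8 genes, 3 of them called lower, with sums of 4294 to 4512 and 3728 to 4090. Atrial markers were called higher for 4 of 4 genes, all with overlapping values, and summed to 17 to 150 in WT and 146 to 911 in Mettl3 KO libraries. Among macrophage markers and among smooth muscle and pericyte markers 1 of 8 each was called lower, and 0 of 6 lymphocyte and 0 of 5 blood cell markers were called (limma, 1 and 2 with an unadjusted p under 0.05). No marker was at 0 in all libraries.

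The mean log2 level of the 8 fibroblast markers was 8.47, 8.30, 8.43 and 8.38 in WT libraries and 8.80, 8.67, 8.82 and 8.80 in Mettl3 KO libraries. Mettl3 KO replicate 2, the lowest of its group in Ythdf1, was also the lowest in fibroblast markers, and Mettl3 KO replicate 3 was the highest in both. In WT libraries replicate 1 was the highest in both, and replicates 2 and 4 the lowest. With this mean as a covariate, the estimate for Ythdf1 of -0.04 had a standard error of 0.24. That fit separates little, because the marker mean correlated with genotype at r = 0.95 across the 8 libraries, and Mettl3 itself came to -0.46 (adjusted p = 0.850 by limma, SE 0.32) in it. In Mettl3 KO replicate 1, whose atrial markers lay in the WT range, Ythdf1 stood at 203, above all WT libraries. With the mean level of atrial markers as a covariate instead, Ythdf1 had a log2 fold change of 0.47 (adjusted p = 0.0337 by limma, SE 0.13). This marker mean correlated with genotype at r = 0.78, and the part of the atrial markers in the rise of Ythdf1 was not tested. The part of the fibroblast markers in the rise of Ythdf1 cannot be told apart from that of genotype in these libraries.

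**Figure D5:**
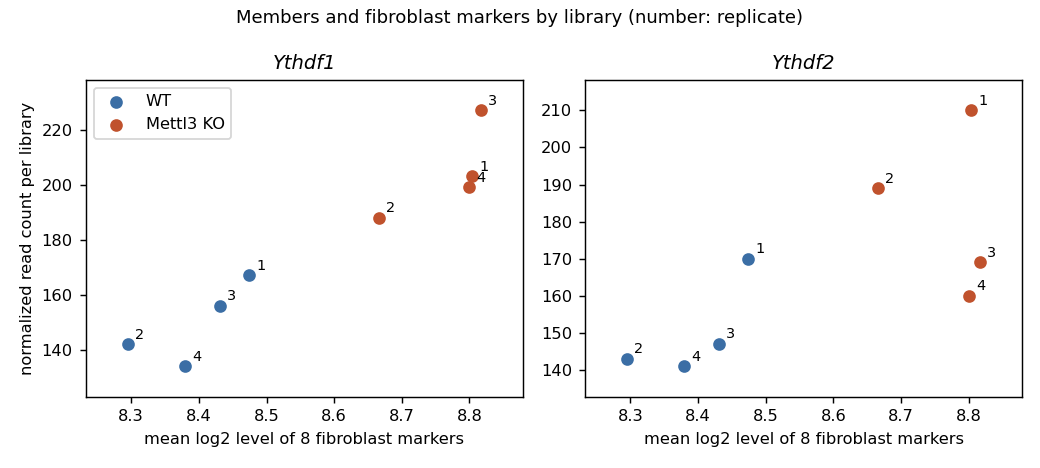
Normalized read count of Ythdf1 (left) and Ythdf2 (right) against the mean log2 level of 8 fibroblast markers, 1 point per library with its replicate number. WT and Mettl3 KO libraries do not overlap on the marker axis (8.30 to 8.47 and 8.67 to 8.82), and within each genotype the highest Ythdf1 value is in the library with the highest marker level, while Ythdf2 runs from 160 to 210 in Mettl3 KO libraries 4 and 1, whose markers are nearly equal.

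Genes with the most similar pattern over the 8 libraries were sought among 9312 genes whose mean value was 50 or more, by Pearson's r, as a description without a test. Ythdf1 was closest to Col1a1, the collagen I chain that is also among the fibroblast markers (r = 0.98), and to Antxr1, a collagen-binding receptor (r = 0.98). These libraries form separate groups by genotype in Ythdf1, and Col1a1 itself rose by 0.38 (adjusted p = 0.000296 by limma, SE 0.06) and Antxr1 by 0.53 (adjusted p = 0.000272 by limma, SE 0.08). Ythdf2 was closest to Scpep1 and Smcr8 (r = 0.98 each), Ythdf3 to Pramel12 and Bnip1 (r = 0.98 and 0.96), Ythdc1 to Wdr61 and Sh3d19 (r = 0.98 and 0.97) and Ythdc2 to Coro1b and Pdcd5 (r = 0.95 each). Such values were found for all 5 members, called or not, among 9312 genes compared over 8 libraries.

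Neighbouring genes within 50 kb were read to see whether a member moved with its surroundings. There were 7 such genes for Ythdf1, Ythdf2 and Ythdc2 and none in the table for Ythdf3 and Ythdc1. Of the 7, 0 were called in the limma fit, beside 7.91% called over all tested genes, and 2 had an unadjusted p under 0.05. Nkain4, 13823 bases from Ythdf1 on the same strand, had means of 6 and 12.8 and a log2 fold change of 1.02 (adjusted p = 0.0508 by limma, SE 0.32), while Arfgap1, 46276 bases from Ythdf1, had -0.12 (limma adjusted p = 0.419). Gmeb1, 8722 bases from Ythdf2, had a log2 fold change of 0.01. Mcc, 15564 bases from Ythdc2 and on the opposite strand, had -0.18 (limma adjusted p = 0.0917).

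The promoters of the members with an entry in the RefSeq promoter table (GRCm38.p6) are shown, to set Ythdf1, which was called, beside Ythdf2 and Ythdc1, which were not. Entries matched for 3 of 5 members (Ythdf1, Ythdf2 and Ythdc1), and Ythdf3 and Ythdc2 are named only. The 250 bases before each start site are given 5′ to 3′ on the gene's strand, with capitals marking the E-box CACGTG, the CCAAT box and the cyclic AMP response element core TGACG on either strand, at GRCm38.p6 chr2:180920937-180921186 (minus strand) for Ythdf1, chr4:132212257-132212506 (minus strand) for Ythdf2 and chr5:86804016-86804265 (plus strand) for Ythdc1.
Ythdf1: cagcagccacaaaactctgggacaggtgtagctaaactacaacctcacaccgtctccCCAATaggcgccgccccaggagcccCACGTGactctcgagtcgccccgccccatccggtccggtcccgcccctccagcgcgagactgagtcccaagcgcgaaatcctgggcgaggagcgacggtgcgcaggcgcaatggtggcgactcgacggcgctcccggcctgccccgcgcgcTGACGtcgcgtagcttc
Ythdf2: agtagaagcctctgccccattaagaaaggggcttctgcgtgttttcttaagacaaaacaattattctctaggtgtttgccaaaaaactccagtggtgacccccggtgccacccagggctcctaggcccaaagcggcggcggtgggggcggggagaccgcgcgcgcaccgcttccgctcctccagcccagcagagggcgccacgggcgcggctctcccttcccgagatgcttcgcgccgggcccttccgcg
Ythdc1: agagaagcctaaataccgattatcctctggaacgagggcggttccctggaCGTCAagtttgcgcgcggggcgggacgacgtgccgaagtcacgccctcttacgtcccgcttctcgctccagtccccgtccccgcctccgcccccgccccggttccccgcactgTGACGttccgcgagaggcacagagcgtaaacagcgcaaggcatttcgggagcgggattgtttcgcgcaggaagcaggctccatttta

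In these windows Ythdf1 had 30 CpG dinucleotides and a GC content of 68.4%, Ythdf2 22 and 64.0%, and Ythdc1 30 and 63.2%, against a median of 6 and 52% over 27025 promoter windows of the same length. The E-box CACGTG occurred once in Ythdf1 and not in Ythdf2 or Ythdc1, and 6.05% of all windows hold it. CCAAT occurred once in Ythdf1 (34.5% of windows hold it), and TGACG once in Ythdf1 and at 2 places in Ythdc1 (17.9% of windows). The GC box GGGCGG, not shown in capitals, was found at 3 places in Ythdf1, 1 in Ythdf2 and 4 in Ythdc1, and 32.9% of windows hold it. The NRF1 core, GCGC on each side of any pair of bases, was found at 1 place in Ythdf1 (5.09% of windows) and the ETS motif CCGGAAGT at 0 (2.93% of windows). All motifs were read on both strands, and none of the matches overlapped another motif. A match is a run of letters and was not tested as a binding site.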

How the data were processed

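The members and gene lists were chosen with earlier results of these data known. Total RNA (1 µg per library) had been sequenced as stranded 72-base single-end reads. Following the published methods, the authors used read trimming with Trimmomatic 0.39, alignment with STAR 2.7.11a to mm39 (Ensembl release 109), removal of duplicates with Picard 3.1.1 and of multi-mapping, ribosomal and mitochondrial reads, strand-specific exon counts from featureCounts 2.0.4 without reads that hit several genes, and normalization with DESeq2 1.36.0. The deposited values are a score, normalized counts rounded to whole numbers, not raw counts, so the main test was on a log scale, and edgeR and DESeq2 were not run here.

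Library factors (0.927 to 1.11) were estimated from the spacing of low values. Simulated data for 8 libraries gave a largest error of 4.31e-05. With limma 3.58.1 in R 4.3.3, 20313 genes whose mean was 1 or more (2732 were not) were modelled by genotype alone on log2(value + 1), which understates changes of low genes, and with a mean-variance trend. P-values were two-sided and adjusted by Benjamini-Hochberg over all of them. All 8 columns were used, grouped by the labels. Ratios of members were tested in Python 3.11.15 with scipy 1.17.1. When 200 genes were given a simulated log2 change of 1, 58% were recovered, all 64 with a mean of at least 100 among them, with 0% false among 116 calls and 0 of 20260 genes called when nothing was changed. Such rates do not describe smaller changes.

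Named genes were the 5 members, Mettl3, genes of the m6A lists that were called or serve as an example, the 2 genes closest to each member by Pearson's r, and genes within 50 kb of a member. Lengths and shared stretches came from GENCODE M21, matched by identifier for 96.2% of tested genes, with no coordinates used. Alternatives were other pseudocounts, filters and scalings, limma voom, no trend, the replicate number as a block, covariates and each library left out. Chi-square per degree of freedom between libraries of one genotype was 1.11 to 1.94, so no column was a copy of another. Whether each library came from a separate heart was not tested.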

Additional observations from a re-analysis of the deposited data

Results flagged for a closer look

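Mettl16 in WT hearts had 1 library far from the others. WT replicate 1 held 220 normalized read counts against 234 to 236 in the other 3, and its gap divided by the range was 0.875, above Dixon's 95% critical value for 4 samples. The search covered 26 combinations of a gene or a library total with a group, and 1 passed, where chance gives about 1.3.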

How the results depend on the processing

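Each log2 fold change was recomputed under 20 alternatives. Ythdf1 stayed called in 18 of them. It was not past the threshold without a mean-variance trend (0.45, limma adjusted p = 0.0742), where 321 genes were called in all. With the mean of fibroblast markers as a covariate, which tracks genotype, the sign turned for Ythdf1 (-0.044), Ythdf3 (-0.054), Ythdc2 (0.21) and Srsf3 (0.11), and 7 genes were called in all. With atrial markers as a covariate 913 genes were called. The cause of these shifts was not tested. Leaving out each library gave 1019 (without Mettl3 KO replicate 3) to 1596 called genes, and log2 fold changes of 0.40 to 0.50 for Ythdf1, 0.20 to 0.33 for Ythdf2, 0.02 to 0.06 for Ythdf3, 0.05 to 0.15 for Ythdc1 and -0.11 to -0.05 for Ythdc2. Ythdc1 kept its sign and stayed uncalled in all 20. The 10 ratios of members kept their direction under the 10 alternatives run for each, but not their size: leaving out Mettl3 KO replicate 3 took Ythdf1/Ythdf2 from 0.18 to 0.09, Ythdc1/Ythdc2 from 0.18 to 0.11 and Ythdf3/Ythdc1 from -0.054 to -0.0020, leaving out Mettl3 KO replicate 1 took Ythdf2/Ythdc1 from 0.17 to 0.05 and Ythdf3/Ythdc1 to -0.11, and leaving out WT replicates 1 and 2 in turn took Ythdf3/Ythdc1 to -0.022 and -0.095, and WT replicate 2 also Ythdf3/Ythdc2 from 0.12 to 0.07. Of the other genes, the call was lost under 16 alternatives for Mettl16, 8 for Cnot1, 7 for Srsf3, 4 for Alkbh5, 3 for Wtap and 1 for Mettl3.

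The replicate numbers were not shown to pair the samples, since deviations of same-numbered libraries correlated at 0.07, 0.03, -0.02 and 0.06, and not every library correlated best with its own number. With the replicate number as a block, 1346 genes were called, and Ythdf2 had a log2 fold change of 0.27 with an adjusted p of 0.0450, Ythdf1 0.45 with 0.00303, while Cnot1 (0.0519) and Mettl16 (0.0671) were no longer called. Depth limits Ythdf1 and Ythdf2 most, at 134 to 217 reads per library.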
